A study of Homo sapiens with 6 samples.

Results

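Keratins are the intermediate filament proteins of epithelial cells, and 10 keratin genes that mark breast epithelium or breast cancer cells were followed by symbol in a table of 58174 gene IDs. They are KRT8, KRT18, KRT7 and KRT19, the keratins of simple and luminal epithelium, and KRT5, KRT6A and KRT17, keratins of basal and activated epithelium. The others are KRT80, a keratin found in many epithelia, and KRT81 and KRT86, keratins first known from hair. All 10 were matched to 1 gene ID each, and estimated counts were summed over the transcripts of each gene. The RNA came from MDA-MB-231, an established human triple-negative breast cancer line, and was total RNA. The labels give 3 groups with 2 samples each: KO1 and KO2, both of which carry the genotype ARID1A knockout, and NC, the control. ARID1A encodes a DNA-binding subunit of the BAF complex, a remodeller of chromatin. The labels do not say whether a knockout group is 1 clone or a pool, nor how KO1 and KO2 differ, and no other treatment is named.

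The table gives 1 column per group, and it is not stated whether a column is 1 library or both samples combined. No spread between replicates can be computed, so each bracketed 95% interval covers counting error only. Total estimated counts were 25801499 in KO1, 26144758 in KO2 and 26798753 in NC. The members held 0.173%, 0.167% and 0.0949% of them in the same order of columns. Genes of the mitochondrial genome held 20.5% of counts in KO1, 16.9% in KO2 and 12.8% in NC. With these genes left out before scaling, the fold of each measured member stayed within its counting interval. Any other part of the mitochondrial genes in the results was not tested. ARID1A itself was at 45.7 CPM in the column labelled KO1, 83.9 CPM in the column labelled KO2 and 77.3 CPM in NC. Here CPM is the count per fixed library size after TMM scaling, which matches the bulk of genes between columns. The RNA of the targeted gene was therefore lower than in NC in 1 of the 2 columns labelled as knockouts. An edited gene can keep its RNA, and protein was not analysed here. As a check of the cell line, the oestrogen receptor gene ESR1 had 0 counts in KO1, 14 in KO2 and 0 in NC. ERBB2, another receptor gene of the triple-negative definition, had more RNA, at 28.0 CPM in KO1, 52.4 CPM in KO2 and 75.7 CPM in NC. VIM, the filament protein of mesenchymal cells, was at 4719, 2925 and 3411 CPM in KO1, KO2 and NC.

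Keratin filaments are built from pairs, 1 type I chain with 1 type II chain, so neither type forms a filament alone. KRT8, KRT7, KRT5, KRT6A, KRT80, KRT81 and KRT86 are type II, and KRT18, KRT19 and KRT17 are type I. KRT8 pairs with KRT18 in nearly all simple epithelia, KRT7 and KRT19 are added in ducts, and basal cells of the breast carry KRT5 with KRT14. The type II genes lie in 1 cluster on chromosome 12, which also holds the type I gene KRT18 beside KRT8, and the other type I genes lie in a cluster on chromosome 17.

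The sequence before the start of the KRT8 transcript KRT8-215 is shown because that transcript was assigned most KRT8 counts in every column. It is the 250 bases before the first base of that start in RefSeq (GRCh38.p14, chr12:52926470-52926719, minus strand), with no part in capitals because none of the motifs searched was found.
KRT8 promoter: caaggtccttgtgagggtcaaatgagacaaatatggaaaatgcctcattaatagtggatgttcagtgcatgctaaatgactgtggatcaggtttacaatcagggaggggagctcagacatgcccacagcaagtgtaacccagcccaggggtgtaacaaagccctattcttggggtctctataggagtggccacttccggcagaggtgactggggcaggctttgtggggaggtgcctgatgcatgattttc
The motifs searched on both strands were TATAAA for the core promoter's TATA element, TGANTCA for AP-1, GGGCGG for the GC box and GCCNNNGGC for AP-2, and none had a match in these 250 bases. Among 35116 promoter windows of the same length, 10.7% held the first, 6.57% the second, 42.6% the third and 19.8% the last. KRT8-215, the transcript that begins there, was assigned 80.2% of KRT8 counts in KO1, 79.8% in KO2 and 74.9% in NC. These shares are estimates for whole transcripts, and where KRT8 RNA begins was not measured.

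KRT8 (ENSG00000170421, hg38 chromosome 12, 52897187 to 52949954, minus strand), the main type II keratin of simple epithelia, had the most transcript of the 10 in every column. It was at 647 CPM in KO1 (636 to 657), 559.6 CPM in KO2 (551 to 568) and 435 CPM in NC (427 to 443). Both knockout columns were above NC, by 1.49-fold in KO1 (1.45 to 1.52) and 1.29-fold in KO2 (1.26 to 1.32).

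KRT18 (ENSG00000111057, chromosome 12, 52948871 to 52952901, plus strand) is its type I partner. It was at 357 CPM in KO1 (349 to 365), 207 CPM in KO2 (202 to 213) and 141 CPM in NC (137 to 146). The KO1 column stood highest and NC lowest, with folds over NC of 2.52 in KO1 (2.43 to 2.62) and 1.47 in KO2 (1.41 to 1.53). The annotated ends of KRT8 and KRT18 overlap on opposite strands, and whether the authors' counting used strand is not stated.

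KRT7 (ENSG00000135480, chromosome 12, 52232520 to 52252186, plus strand), a type II keratin of glandular ducts, was at 392 CPM in KO1 (384 to 401), 316 CPM in KO2 (309.8 to 323) and 158 CPM in NC (154 to 163). It stood above NC in both knockout columns, 2.48-fold in KO1 (2.39 to 2.57) and 1.9998-fold in KO2 (1.93 to 2.07).

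KRT19 (ENSG00000171345, chromosome 17, 41523617 to 41528308, minus strand), the shortest keratin and a type I marker of luminal cells, was at 329 CPM in KO1 (322 to 337), 314 CPM in KO2 (307 to 320.3) and 72.0 CPM in NC (68.9 to 75.2). The knockout columns lay close together, far above NC. The folds over NC were 4.58 in KO1 (4.36 to 4.81) and 4.36 in KO2 (4.15 to 4.58).

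**Figure D1:**
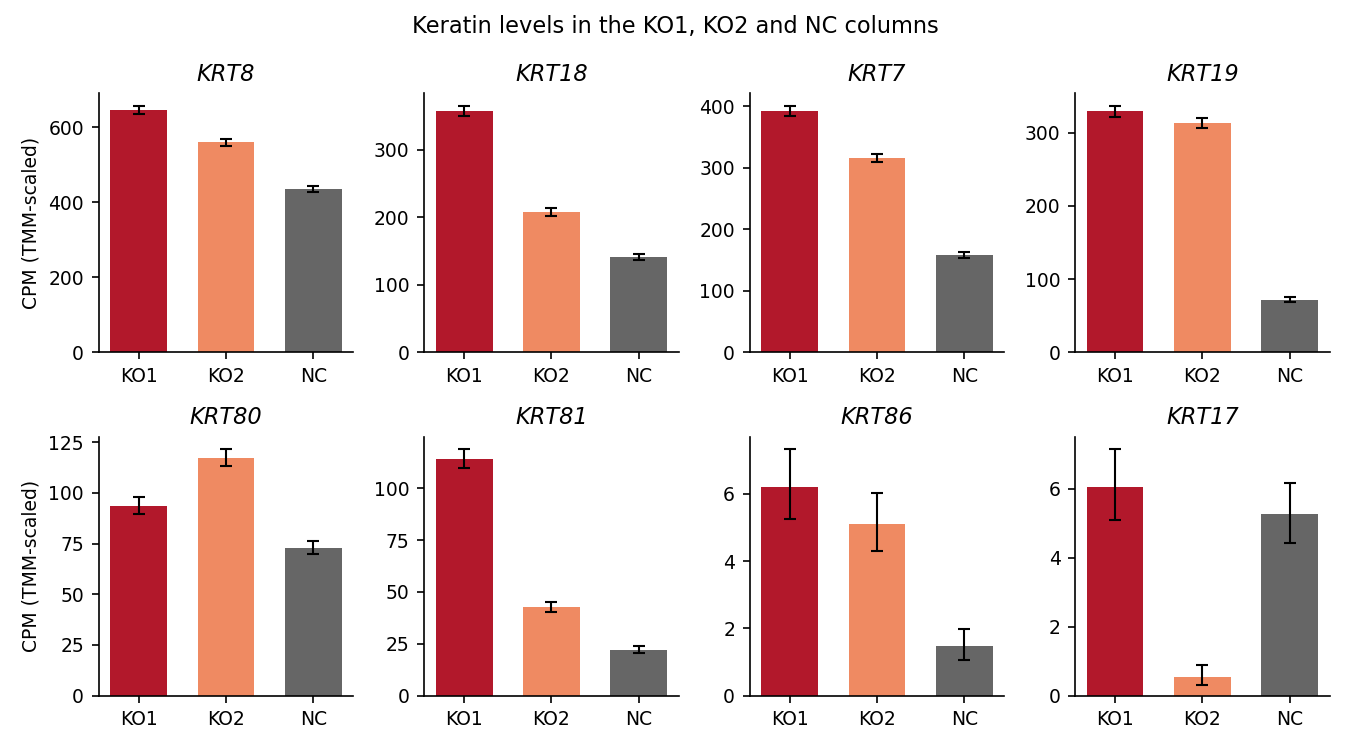
Level of the 8 keratin members with counts above 0, in CPM after TMM scaling, in the KO1, KO2 and NC columns; bars are single columns and error bars are exact 95% counting intervals, not spread between replicates. KRT19 stands at 329 and 314 CPM in KO1 and KO2 against 72.0 CPM in NC, while KRT17 stands at 6.04 and 0.536 CPM against 5.25 CPM.

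Levels of different genes were compared per length, in the authors' TPM. The 4 simple keratins together made up 92.8% of the TPM of all members in KO1, 94.6% in KO2 and 93.9% in NC. Of the TPM of all members KRT19 took 19.3% in KO1, 22.9% in KO2 and 9.12% in NC, and KRT8 took 30.6%, 32.9% and 46.7% in the same columns. KRT8 and KRT7 were first and second by TPM summed over all transcripts in every column. KRT18 and KRT19 followed at nearly the same level in KO1, 302.7 and 301 TPM, whereas KRT19 was above KRT18 in KO2, 389 against 226 TPM, and below it in NC, 84.7 against 145 TPM. The rank of KRT7 rests on short noncoding transcripts in its sums of 369, 435 and 208 TPM in KO1, KO2 and NC. Its main coding transcript KRT7-201 was at 234, 239 and 116 TPM. The main coding transcript of KRT19, KRT19-201, was at 283, 363 and 80.9 TPM, above KRT7-201 in KO1 and KO2 and below it in NC.

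Summed by type, the members reached 955 TPM of type II and 609 TPM of type I transcript in KO1, 1086 and 615 TPM in KO2, and 691 and 237 TPM in NC. The ratio of type II to type I was thus 1.57 in KO1, 1.77 in KO2 and 2.92 in NC. KRT8 was at 1.58 times the TPM of its partner KRT18 in KO1, 2.48 times in KO2 and 2.98 times in NC. These ratios lie within a column and do not depend on the scaling between columns, but they have no replicate check. Their sums also include transcripts that encode no chain, such as KRT7-203 at 17.4, 100 and 56.3 TPM in KO1, KO2 and NC. They are therefore not ratios of coding transcripts.

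**Figure D2:**
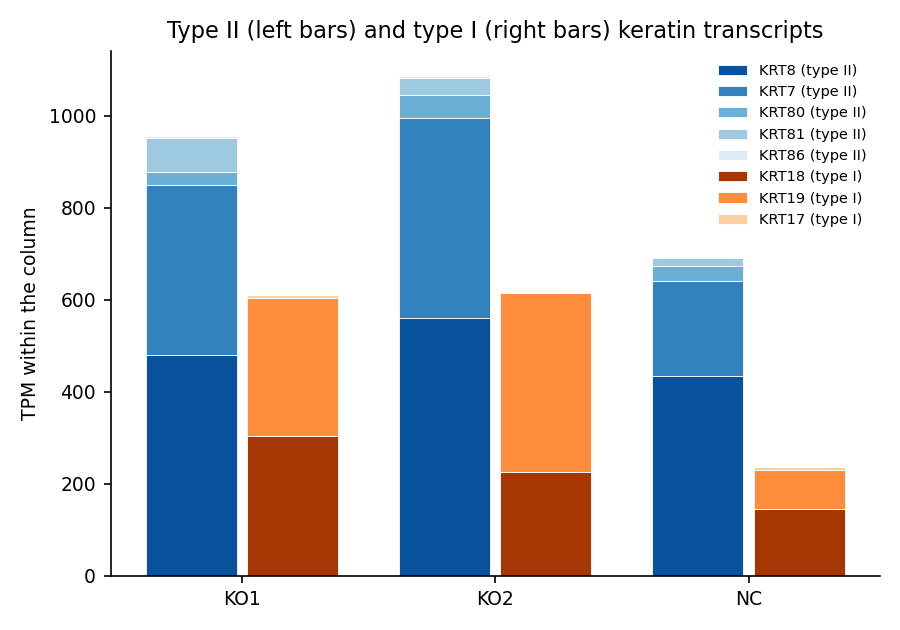
Summed TPM of the members within each column, type II keratins in the left bar and type I keratins in the right bar of KO1, KO2 and NC, stacked by gene. The type I bar is at 609 and 615 TPM in KO1 and KO2 against 237 TPM in NC, and KRT19 makes up most of that gap.

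The keratins of basal epithelium were scarce. KRT5 (ENSG00000186081, chromosome 12, 52514575 to 52520687) and KRT6A (ENSG00000205420, chromosome 12, 52487174 to 52493257) had 0 counts in all 3 columns, which allows up to 0.130 CPM in KO1 and 0.107 CPM in each of KO2 and NC by a floor of 3 counts. KRT14, the type I partner of KRT5, had 10, 2 and 7 counts in KO1, KO2 and NC.

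KRT17 (ENSG00000128422, chromosome 17, 41619437 to 41624842, minus strand), a type I keratin of basal and wounded epithelium, was the basal member with counts. It was at 6.04 CPM in KO1 (5.08 to 7.14), 0.536 CPM in KO2 (0.300 to 0.883) and 5.25 CPM in NC (4.44 to 6.17), from 139, 15 and 147 counts. Only KO2 stood apart, 9.80-fold lower than NC (5.75 to 18.0) and 11.3-fold lower than KO1 (6.61 to 20.7). The KO1 fold over NC of 1.15 had a counting interval of 0.906 to 1.46, which includes equality. Within KO2 just 3 counts came from KRT17-201, the main transcript, which had 133 counts in KO1 and 121 in NC. The other 12 KO2 counts were given to KRT17-204, at 0 in KO1 and NC.

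KRT80 (ENSG00000167767, chromosome 12, 52168996 to 52192000, minus strand), a type II keratin found in many epithelia near cell junctions, was at 93.7 CPM in KO1 (89.8 to 97.7), 117 CPM in KO2 (113 to 121) and 72.8 CPM in NC (69.7 to 76.0). KO2 stood highest, and KO1 lay between KO2 and NC. The folds over NC were 1.29 in KO1 (1.21 to 1.37) and 1.61 in KO2 (1.53 to 1.70), although with summed TPM in place of counts the KO1 log2 fold was -0.03.

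KRT80 is annotated with 2 coding transcripts that differ in the last part of the protein, and their estimated proportions differed between the columns. Both share their first 1235 coding bases (GENCODE release 29). The ends are shown in coding direction from coding base 1226, without the stop codon, with the shared bases in lower case and the bases of each transcript's own end in capitals.
KRT80-201: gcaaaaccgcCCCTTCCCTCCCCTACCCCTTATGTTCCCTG
KRT80-202: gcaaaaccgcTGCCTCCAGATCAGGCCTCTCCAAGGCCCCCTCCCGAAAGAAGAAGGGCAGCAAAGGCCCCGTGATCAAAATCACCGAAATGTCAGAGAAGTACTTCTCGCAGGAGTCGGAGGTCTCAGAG
The coding lengths are 1266 and 1356 bases. KRT80-202, the longer form, was at 75.6 CPM in KO1, 54.6 CPM in KO2 and 39.7 CPM in NC. KRT80-201 was at 18.0 CPM in KO1, 54.2 CPM in KO2 and 24.1 CPM in NC. The longer form was thus assigned 80.7% of KRT80 counts in KO1, 46.5% in KO2 and 54.6% in NC. Only 1.23% of the 50-base windows of KRT80-202 and 2.13% of those of KRT80-201 tell the forms apart, so the split rests on few fragments. KRT80-203, annotated as a retained intron, had 2 counts in KO1, 241 in KO2 and 250 in NC.

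Of the keratins first known from hair, KRT81 was the more abundant. KRT81 (ENSG00000205426, chromosome 12, 52285913 to 52291534, minus strand) was at 114 CPM in KO1 (109.9 to 119), 42.7 CPM in KO2 (40.3 to 45.2) and 22.0 CPM in NC (20.3 to 23.8). KO1 stood 5.18-fold above NC (4.75 to 5.67), KO2 stood 1.94-fold above NC (1.76 to 2.14), and KO2 was 2.68-fold lower than KO1 (2.50 to 2.87).

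KRT86 (ENSG00000170442, chromosome 12, 52249300 to 52309163, plus strand) was at 6.22 CPM in KO1 (5.24 to 7.32), 5.11 CPM in KO2 (4.30 to 6.01) and 1.46 CPM in NC (1.05 to 1.99). Its counts were 143, 143 and 41. The knockout columns overlapped in their counting intervals and lay above NC, 4.25-fold in KO1 (2.98 to 6.16) and 3.49-fold in KO2 (2.45 to 5.06).

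These hair keratins are close copies, which bears on how fragments could be divided between them. Their coding sequences were identical at 93.6% of aligned bases, with a longest shared run of 605 bases, and 38.4% of the 50-base windows of the KRT81 transcript also occur in KRT86. KRT81 lies inside the span of KRT86 on the opposite strand. A stretch in which they can be told apart is shown, coding bases 1237 to 1326 of each, with the 19 differing bases in capitals.
KRT81: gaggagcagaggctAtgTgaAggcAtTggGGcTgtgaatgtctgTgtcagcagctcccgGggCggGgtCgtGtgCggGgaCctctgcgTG
KRT86: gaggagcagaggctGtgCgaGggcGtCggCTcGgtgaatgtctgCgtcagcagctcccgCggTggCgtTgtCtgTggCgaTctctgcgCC
With KRT81, KRT83 and KRT86 counted as 1 unit, the log2 fold of the unit over NC was 2.35 in KO1 and 1.02 in KO2. KRT81 alone was at 2.37 and 0.95. It held most counts of the unit, with 2628 in KO1, 1195 in KO2 and 617 in NC against 143, 143 and 41 for KRT86. The sum therefore follows KRT81 and cannot tell how KRT86 itself differed. With this unit in place of its genes, 2 were higher in both knockout columns by a log2 fold of at least 1, KRT19 and the unit.

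To set these values against all genes, a size rule was applied: a log2 fold of at least 1 in size (2-fold, with a prior count of 2), a counting interval that excludes equality, and a mean of at least 1 CPM. Of the 10 members 8 reached the CPM minimum. In KO1 over NC, 5 of the 8 were higher (KRT7, KRT18, KRT19, KRT81 and KRT86) and 0 lower, beside 15.4% higher and 17.4% lower among 14524 measured genes. In KO2 over NC, 2 were higher (KRT19 and KRT86) and 1 lower (KRT17), beside 11.0% and 10.1% of all genes. KRT7 and KRT81 were just short of it there, with log2 folds of 0.9995 and 0.95. KRT19 and KRT86 were the members higher in both knockout columns, beside 6.22% of genes higher in both, and no member was lower in both, beside 5.68% of genes. Both comparisons share the NC column, so they are not independent of each other. For KRT86, how its fragments were divided from those of KRT81 was not tested. Between the columns of the same genotype label, KO2 over KO1, 0 members were higher and 2 lower (KRT17 and KRT81), beside 14.9% and 11.2% of genes. The median log2 fold of the 8 members was 1.32 in KO1 over NC, 0.82 in KO2 over NC and -0.30 in KO2 over KO1, beside medians of -0.01, 0.00 and 0.04 over all measured genes. A count over 8 members chosen with earlier results of these data known is a description.

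The one test with a residual degree of freedom set KO1 and KO2 as 1 group against NC with edgeR's quasi-likelihood test. It assumes that the lone NC column varies like the knockout columns, and what its p-values weigh is how far KO1 and KO2 lie apart, not the variation among cultures. It called 27 of 18289 genes at an adjusted p under 0.05, 0.0547% that rose and 0.0930% that fell, and 0 of the 8 members. At an unadjusted p under 0.05 there were 2 members, KRT19 and KRT81. KRT19 had a log2 fold of 2.16 and a Benjamini-Hochberg adjusted p of 0.287 in edgeR and 0.0680 in DESeq2, and was higher in both knockout columns. KRT81 had a log2 fold of 1.83 and an adjusted p of 0.560 in edgeR and 0.410 in DESeq2. DESeq2 called 306 genes and 0 members, with 3 members at an unadjusted p under 0.05. The member differences above are therefore values of single columns, not changes that passed a test.

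Counts of single transcripts are estimates by a tool that is not stated, and shares of near-identical transcripts may depend on it. For KRT18, the transcript KRT18-202 was at 129.7 CPM in KO1, 2.68 CPM in KO2 and 0.286 CPM in NC, from 2984, 75 and 8 counts. It held 36.3% of KRT18 counts in KO1, 1.29% in KO2 and 0.202% in NC. KRT18-201, the other transcript with the same 1290-base coding sequence, was at 148, 133 and 80.5 CPM in KO1, KO2 and NC. These transcripts differ before the coding sequence, and just 4.89% of the 50-base windows of KRT18-202 are absent from KRT18-201. Without KRT18-202 the gene was 1.61-fold above NC in KO1 (1.54 to 1.68) and 1.45-fold above NC in KO2 (1.39 to 1.51). That sum leaves out any KRT18 fragment assigned to KRT18-202, including those that match KRT18-201 as well.

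For KRT7, the coding transcript KRT7-201 held 84.5% of counts in KO1, 79.4% in KO2 and 80.7% in NC. KRT7-209 and KRT7-212, noncoding fragments of the gene, were at 18.2 and 17.2 CPM in KO1, 5.89 and 6.21 CPM in KO2, and 0.179 and 0.143 CPM in NC. KRT7-203, also noncoding, had another order, 8.26 CPM in KO1, 35.2 CPM in KO2 and 20.6 CPM in NC.

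For KRT86, all but a few counts lay on KRT86-202 in KO1 and NC, with 136 and 39 counts, and on KRT86-201 in KO2, with 142 counts, and each was at 0 where the other was used. Both encode the same 1458 coding bases. They belong to the same gene ID, so the gene total does not depend on the choice between them. Of the 50-base windows of KRT86-201, 35.3% also occur in KRT81, so that total can still depend on how fragments were divided between these genes. KRT19 was the simplest, with 96.5%, 96.4% and 97.6% of counts on KRT19-201 in KO1, KO2 and NC.

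**Figure D3:**
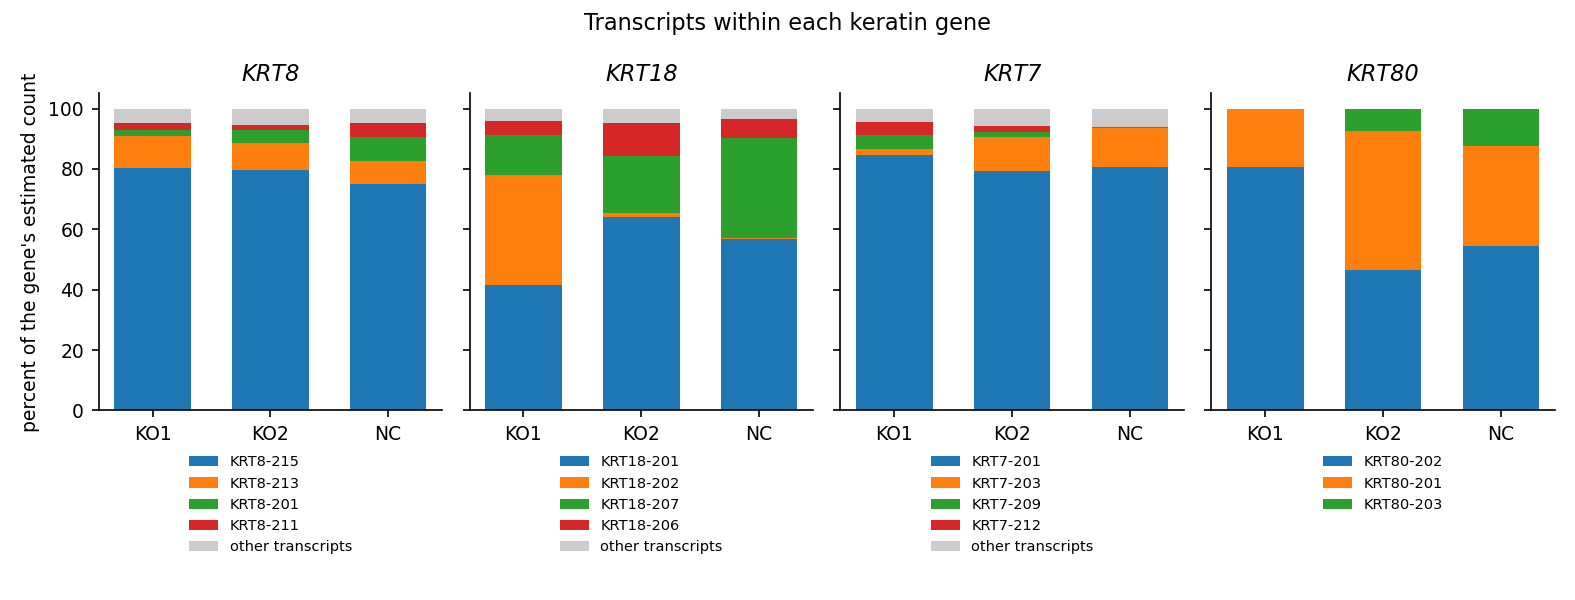
Share of each gene's estimated count given to its transcripts, in percent, for KRT8, KRT18, KRT7 and KRT80 in the KO1, KO2 and NC columns. KRT18-202 takes 36.3% of KRT18 in KO1 against 1.29% in KO2 and 0.202% in NC, and KRT80-202 takes 80.7%, 46.5% and 54.6% of KRT80 in KO1, KO2 and NC.

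KRT8 and KRT18 have many processed pseudogenes that could take or give fragments. Of 51 KRT8 pseudogenes 32 had counts, and together they reached 1.62% of the KRT8 count in KO1, 1.21% in KO2 and 1.32% in NC. KRT8P12 had the most, with 127, 65 and 52 counts. Of 67 KRT18 pseudogenes 32 had counts, for 0.865%, 1.03% and 1.06% of the KRT18 count, led by KRT18P17 with 12, 9 and 3 counts. Shared 50-base windows with other genes made up 41.3% of the KRT8 transcript, 31.8% of KRT18 and 17.4% of KRT17, and at most 1.79% of KRT19, KRT7 and KRT80. The transcripts of the last 3 genes thus consist mostly of sequence not found in same-sense transcripts of other genes. Overlap with transcripts of the opposite strand was not part of that comparison.

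Outside the members, 45 other keratin genes were read, of which 35 had 0 counts in every column and 5 reached a mean of 1 CPM. All 5 are type I genes on chromosome 17. KRT10, a keratin of upper epidermis, was at 136 CPM in KO1, 63.7 CPM in KO2 and 77.8 CPM in NC. KRT34, a hair keratin, was at 66.4 CPM in KO1, 3.36 CPM in KO2 and 12.7 CPM in NC. KRT15, a keratin of basal cells, was at 11.3, 4.14 and 6.04 CPM. KRT16, which accompanies KRT6A in activated epidermis, was at 4.30 CPM in KO1, 0 counts in KO2 and 1.14 CPM in NC. KRT33B, another hair keratin, was at 1.39, 0.643 and 1.11 CPM.

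By CPM the KO1 column was highest and the KO2 column lowest in each of the 5. For KRT33B, however, the folds over NC were 1.26 in KO1 (0.742 to 2.13) and 0.580 in KO2 (0.306 to 1.07). Both counting intervals include equality. With TPM the KO2 column was lowest in 5 of 5, but KO1 was above NC in 3, since KRT15 was at 4.06 TPM in KO1 and 4.19 TPM in NC and KRT33B at 1.07 and 1.08 TPM. KO2 over KO1, 5 of 5 were lower by the size rule on counts, beside 11.2% of genes, and 2 of 5 (KRT34 and KRT16) were 2-fold lower with summed TPM. Among the members KRT17 and KRT81 were lower on counts, and of these KRT81 was just short of 2-fold with summed TPM. The fold was 19.8-fold lower for KRT34 (16.1 to 24.6) and at least 40.2-fold lower for KRT16 by the floor of 3 counts. KRT10-AS1, which overlaps KRT10 on the opposite strand, was at 16.6 CPM in KO1, 21.4 CPM in KO2 and 26.1 CPM in NC. KRT19, in the same chromosome 17 cluster as KRT34, KRT15 and KRT16, was the exception, with a KO2 over KO1 log2 fold of -0.07 that turned to 0.37 with summed TPM.

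**Figure D4:**
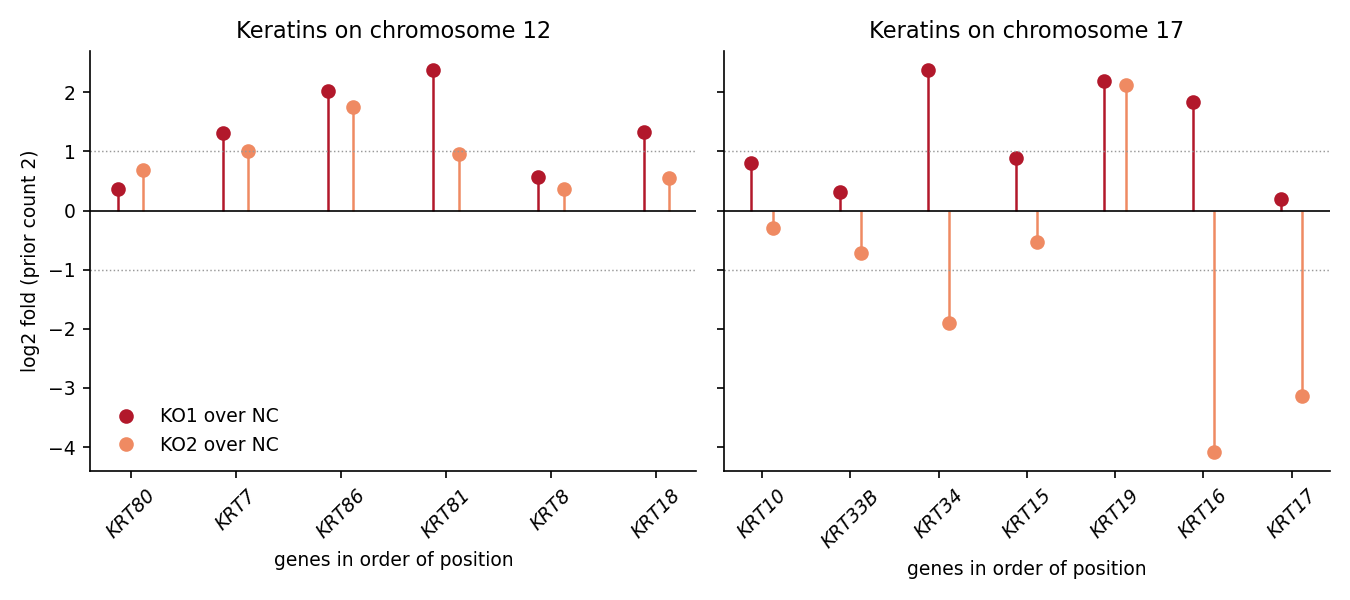
Log2 fold (prior count 2) of every keratin gene with a mean of at least 1 CPM, KO1 over NC and KO2 over NC, with genes ordered by position on chromosome 12 and chromosome 17; dotted lines mark the 2-fold size rule. The 6 genes on chromosome 12 lie above 0 in both columns, while on chromosome 17 only KRT19 does, and the KO2 point of KRT16, a column with 0 counts, depends on the prior count (with summed TPM, KRT80 in KO1 is at -0.03).

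The genes around the keratin clusters were read for comparison. The type II cluster spans 784 kb from KRT80 to KRT18. The 50 nearest measured genes that are not keratins, 25 on each side, had a median log2 fold of 0.28 in KO1 over NC and 0.22 in KO2 over NC, beside -0.03 and 0.00 over 757 measured genes of chromosome 12. Around the type I cluster the 50 neighbours had medians of -0.36 and -0.27, beside -0.12 and -0.18 over 949 genes of chromosome 17. By the size rule 9 neighbours of the type II cluster were higher and 6 lower in KO1 over NC, and 8 higher and 1 lower in KO2 over NC. Around the type I cluster 4 were higher and 8 lower in KO1, and 4 higher and 3 lower in KO2. These counts are out of 50 neighbours per cluster. Among all measured genes 15.4% were higher and 17.4% lower in KO1 over NC, and 11.0% and 10.1% in KO2 over NC. KRT7-AS, a transcript on the opposite strand inside KRT7, was at 7.13 CPM in KO1, 6.25 CPM in KO2 and 1.86 CPM in NC, which puts KO1 3.84-fold (2.79 to 5.35) and KO2 3.36-fold (2.46 to 4.68) above NC. Because the use of strand in counting is not stated, reads of KRT7 and KRT7-AS cannot be told apart here.

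Keratin filaments are anchored to junctions by plakins, plakophilins and related proteins, and 13 such genes were read. Of these 11 reached 1 CPM, 4 were higher in KO1 over NC and 7 in KO2 over NC, 0 were lower in either, and 3 were higher in both. The shares of all measured genes were 15.4% higher in KO1, 11.0% higher in KO2 and 6.22% higher in both. DSP, the desmosomal plakin that binds keratin, was at 159 CPM in KO1, 132 CPM in KO2 and 51.1 CPM in NC. PPL, periplakin, was at 12.8, 18.2 and 1.68 CPM, with KO1 7.61-fold (5.58 to 10.6) and KO2 10.9-fold (8.05 to 15.0) above NC. FAM83H, which binds keratin and organises its filaments, was at 35.3, 21.5 and 7.61 CPM. The median log2 fold of the 11 was 0.63 in KO1 over NC and 1.13 in KO2 over NC. edgeR called 0 of the 12 partners it tested.

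Among 17 transcription factors known to act on keratin or epithelial genes, 12 reached 1 CPM. TP63, the master factor of basal epithelium, was higher in both knockout columns at 1.35 CPM in KO1 and 1.93 CPM in KO2 against 0.286 CPM in NC, from 31, 54 and 8 counts. ELF3, an epithelial ETS factor, was lower in both, at 8.13 and 16.5 CPM against 43.6 CPM. SNAI1, a repressor of epithelial genes, was also lower in both, at 1.39 and 0.928 CPM against 8.07 CPM. The other 9 passed in neither direction in both columns. Of the 12, then, 1 was higher in both, near the 6.22% of all measured genes, and 2 were lower in both, beside 5.68%. edgeR called 0 of the 14 it tested.

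Of 10 other intermediate filament genes, 4 reached 1 CPM, with 1 higher and 2 lower in KO1 and 1 higher in KO2. GFAP, the astrocyte filament, was the one higher in both, from 20 counts in KO1, 65 in KO2 and 10 in NC. Beside these few genes, 15.4% of all measured genes were higher and 17.4% lower in KO1, 11.0% higher in KO2 and 6.22% higher in both. NES, a filament of progenitor cells, was at 0.696 CPM in KO1, 14.6 CPM in KO2 and 7.29 CPM in NC, and SYNM, a filament linker, was at 8.69, 30.7 and 34.6 CPM. The log2 fold of VIM was 0.47 in KO1 over NC and -0.22 in KO2 over NC. EPCAM, an epithelial adhesion protein, was at 20.3 CPM in KO1, 15.4 CPM in KO2 and 6.46 CPM in NC, whereas CDH1, the epithelial cadherin, was at 0.304, 1.07 and 0.286 CPM. Of 8 markers of leukocytes, endothelium and fibroblasts, 4 reached 1 CPM, and their sum was 68.8 CPM in KO1, 95.7 CPM in KO2 and 78.4 CPM in NC. DCN had 0 counts in every column, and PTPRC, CD3E and VWF had at most 4 counts in any. The 4 measured markers differed in direction. The fibroblast marker PDGFRB was at 0.435 CPM in KO1 and 2.39 CPM in KO2 against 10.8 CPM in NC, while COL1A1 was at 49.8 and 36.3 CPM against 19.8 CPM. CD68, a macrophage marker, was at 18.0 CPM in KO1 and 50.8 CPM in KO2 against 44.3 CPM in NC, and PECAM1, an endothelial marker, at 0.609 and 5.93 CPM against 3.36 CPM. The part of cells of another type in the keratin values was not tested.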

How the data were processed

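Total RNA of the KO1, KO2 and NC groups was sequenced after stranded library preparation, per the labels' protocols. Per the file headers, the authors deposited estimated counts and TPM for 199167 transcripts, 1 column per group and unit, and 3 further value columns were not used. The Count columns were taken to be estimated counts that the authors had rounded up, because 84.7% to 95.3% of low transcripts lay 0 to 1 above the count that the deposited TPM implies (tolerance 0.05). Bowtie2, CASAVA, featureCounts and hg38 are named in the submitters' processing notes without roles; the tool that estimated transcripts is not given in the sources used here.

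Counts were summed per gene ID, with symbols for 57392 IDs, and scaled with TMM (edgeR 4.0.16, R 4.3.3). Folds between single columns follow a size rule with exact Clopper-Pearson intervals (95%) and have no p-value. Intervals and the floor of 3 counts describe counting error alone; without molecular identifiers, 1 molecule can give several fragments. The test across all genes was edgeR's quasi-likelihood F test with a two-sided, Benjamini-Hochberg adjusted p under 0.05, with DESeq2 1.42.0 as an alternative. The filter before scaling and the robust option of that test were set after call counts under several options had been seen, as those that gave the 27 calls of an earlier fit to this table. The members and gene lists were chosen with earlier results of these data known. The named genes are all members, other keratins with a mean of at least 1 CPM, the leading pseudogene of a parent, and up to 3 genes per direction and list that passed in both knockout columns. KRT14, KRT10-AS1, KRT7-AS, VIM, NES, SYNM, the markers of the line and the markers of other cells other than PDGFRB were named outside that rule, after their values were seen.

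Promoter sequence is from RefSeq (GRCh38.p14), which matched 2 members; the window of KRT5 overlaps an annotated exon and is not shown. Coding sequence is from GENCODE release 29, whose use by the authors is not stated.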

Additional observations from a re-analysis of the deposited data

Results flagged for a closer look

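KRT34 and KRT16, type I keratins of chromosome 17, passed the size rule in opposite directions in the columns that carry the same genotype label. KRT34 had a log2 fold over NC of 2.38 in KO1 and -1.90 in KO2, from 1528 counts in KO1, 94 in KO2 and 356 in NC. KRT16 had a log2 fold over NC of 1.84 in KO1 and -4.09 in KO2, from 99, 0 and 32 counts. Its KO2 value depends on the prior count because the column holds 0 counts, and with a floor of 3 counts KO2 was at least 10.7-fold lower than NC. With 1 column per group the difference between the knockout columns was not tested for either gene.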

How the results depend on the processing

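Across the alternatives, 40 of 48 counts of keratins stayed within 1.5 times the value reported, and no member past the size rule changed direction. Of the log2 folds of single members, 193 of 237 stayed within their counting interval. The 237 include folds under another CPM minimum or the 1.5-fold rule, settings that cannot move a fold, so the share that stayed is raised by them. For KO2 over NC the count of 3 members became 1 with a mean of at least 5 CPM, 5 with summed TPM and 6 at 1.5-fold. The 2 members higher in both knockout columns became 1 with a mean of at least 5 CPM and 4 at 1.5-fold, and the 2 lower in KO2 over KO1 became 1 with a mean of at least 5 CPM and 1 with summed TPM. Smaller moves, within 1.5 times, were seen too. KO2 over NC gave 4 members with total counts, TMM without mitochondrial genes or protein-coding transcripts alone. Each of these settings, and summed TPM, gave 3 members higher in both. KO1 over NC gave 4 in place of 5 with a mean of at least 5 CPM, summed TPM or near-identical copies summed. KO2 over KO1 gave 3 at 1.5-fold. Of the other keratins, the 5 lower in KO2 over KO1 became 2 with summed TPM. KRT17 and KRT86 have a mean under 5 CPM. KRT7 over NC ranged from 0.83 to 1.48 in KO1 and from 0.97 to 1.07 in KO2 (log2), and KRT81 over NC from 0.92 to 1.02 in KO2, so both sit at the threshold in KO2. Total counts moved the median of all genes to -0.24 in KO1 over NC and 0.30 in KO2 over KO1, and summed TPM to -0.39 and 0.46. The KO2 over KO1 log2 fold of KRT7, at -0.31, was 0.24 with summed TPM, and that of KRT8, at -0.21, was 0.22. For KRT17 in KO1 over NC, 0.20 became -0.40.

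edgeR called 0 members in every variant of the fit, while its calls over all genes were 27 as reported, 48 without robust estimation, 63 with TMM before the filter, 15 without mitochondrial genes, 14 with DESeq2 size factors, 493 with no filter and 778 with 1 common dispersion. DESeq2 called 306. The lowest adjusted p of any member ran from 0.0680 to 0.347 over these fits. The options of the reported fit were picked after such counts were seen, and the fits without robust estimation or with TMM before the filter, like the sums of protein-coding transcripts alone and the TPM of the other keratins, were added after seeing the data. No paired analysis was possible because the columns carry no replicate number and each group has 1 column, and for the same reason no replicate could be left out. A low column count, such as 15 for KRT17 in KO2 and 41 for KRT86 in NC, limits the precision of its fold.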
